A study of Mus musculus with 12 samples.

Results

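Sodium and pacemaker channel transcripts were followed across 12 RNA libraries of isolated adult mouse cardiomyocytes (ACM). The members were 5 genes of 21493 in the count tables, taken by symbol: the sodium channel pore genes Scn4a and Scn7a, the accessory subunit gene Scn4b, and the pacemaker channel genes Hcn2 and Hcn4. The study asked how the loss of desmin, the muscle intermediate filament protein, and swimming as a mild stress change the transcriptome of these cells. Poly-A RNA came from mice 3 months old, and each group held 3 libraries. Each library was a pool of cells from several mice, as the methods state. The groups were Des+/+ non-swim, with desmin and no exercise, Des+/+ swim, with desmin and swimming, Des-/- non-swim, lacking desmin without exercise, and Des-/- swim, lacking desmin with swimming. In the methods, Des+/+ and Des-/- stand for mice that also carry an αMHC-GFP reporter, driven in cardiomyocytes, on a 129SV background, and the labels do not state whether the mice used here carried it. The Des-/- mice carry the null allele in all tissues, so these groups do not separate loss of desmin in cardiomyocytes from loss elsewhere, and at this age they have dilated cardiomyopathy according to the study. The length of the swimming regime is not given in the sources used here.

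Voltage-gated sodium channels carry the fast inward current of the cardiac action potential. Their pore subunit is modulated by beta subunits such as that of Scn4b. HCN channels open when the membrane hyperpolarises and carry the pacemaker current, with Hcn4 best known from the sinoatrial node and Hcn2 the usual form of ventricular muscle.

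Sequence just before the start of a gene is shown for both pacemaker genes, which were lower together in Des-/- non-swim cells, and for Scn7a, the member that moved the opposite way. Each line gives the 250 bases before the RefSeq start (build GRCm38.p6), 5′ to 3′ on the gene's strand, with every CpG pair in capitals. They lie at chr10:79716384-79716633 on the plus strand for Hcn2, chr9:58822699-58822948 on the plus strand for Hcn4 and chr2:66784911-66785160 on the minus strand for Scn7a.
Hcn2: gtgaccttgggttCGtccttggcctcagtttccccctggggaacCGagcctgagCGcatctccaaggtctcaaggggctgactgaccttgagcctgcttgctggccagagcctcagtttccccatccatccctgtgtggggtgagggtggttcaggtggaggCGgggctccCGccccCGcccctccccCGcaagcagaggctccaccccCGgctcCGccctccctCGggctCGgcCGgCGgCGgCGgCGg
Hcn4: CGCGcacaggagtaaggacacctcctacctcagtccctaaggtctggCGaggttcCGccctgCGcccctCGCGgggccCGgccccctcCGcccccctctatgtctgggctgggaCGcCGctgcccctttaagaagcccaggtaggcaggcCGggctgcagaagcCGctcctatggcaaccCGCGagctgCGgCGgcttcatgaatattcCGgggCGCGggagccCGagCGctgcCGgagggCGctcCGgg
Scn7a: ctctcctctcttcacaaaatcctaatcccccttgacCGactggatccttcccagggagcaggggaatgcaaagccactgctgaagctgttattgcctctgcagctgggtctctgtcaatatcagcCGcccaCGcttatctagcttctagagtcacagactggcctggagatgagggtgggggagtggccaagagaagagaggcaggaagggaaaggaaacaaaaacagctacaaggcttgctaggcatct

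The pacemaker windows are rich in G and C, at 70.4% for Hcn2 and 71.2% for Hcn4, against 53.2% for Scn7a and a median of 52% over 27025 promoters of the same length. CpG pairs numbered 16 in Hcn2, 25 in Hcn4 and 3 in Scn7a. The ratio of observed to expected CpG was 0.519 for Hcn2, 0.792 for Hcn4 and 0.170 for Scn7a, beside a median of 0.378. The windows of the other members, not printed, held 4 CpG pairs for Scn4a and 23 for Scn4b. Their ratios of observed to expected CpG were 0.171 for Scn4a and 0.859 for Scn4b. The RefSeq and GENCODE starts lie 3898 bases apart for Scn4a and 229 for Scn4b. All or most of these windows falls inside the GENCODE gene, and they are not compared with the printed ones. The printed windows therefore do not stand for all members. For Hcn4 the starts lie 463 bases apart, and its window lies wholly before the GENCODE start.

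Motifs were searched as letters on both strands of these windows. The GC box GGGCGG matched 3 times in Hcn2, 2 times in Hcn4 and 1 time in Scn7a, and at least once in 32.9% of all promoters. The T-box element AGGTGT matched 1 time, in Hcn4, and in 12% of all promoters. The GATA site AGATAA matched 1 time, in Scn7a, and in 10.3% of all. The E-box CANNTG matched 1 time each in Hcn2 and Scn7a, and in 66% of all, and the match in Scn7a read CAGCTG, found in 12.8%. The TATA box TATAAA, the MEF2 site and the CArG box matched in 0 of the 5 windows, those inside Scn4a and Scn4b included, and in 13%, 0.518% and 1.4% of all promoters.

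All 5 members passed the filter on low counts, which kept 13158 genes. Levels are given as CPM, a gene's reads scaled to the effective size of its library. Reads in genes ranged from 8935126 to 12072443 in Des+/+ non-swim, 7425291 to 9440967 in Des+/+ swim, 8058801 to 11206142 in Des-/- non-swim and 4320819 to 6521963 in Des-/- swim, so the last group was counted least precisely. The share of reads in no gene or not assigned to 1 was 53.5% to 59.5%, 63.6% to 68.4%, 52.4% to 68.3% and 72.3% to 78.8% in the same order. This share was higher after swimming in both genotypes, and in Des-/- than in Des+/+ after swimming, with no overlap of libraries in these comparisons. Its part in any result was not tested. Des, the targeted gene, lay between 973 and 3647 CPM in Des+/+ and between 50.3 and 101 CPM in Des-/- libraries. Marker lists of other cells moved with genotype. The summed level of 14 cardiomyocyte markers was 75502 to 114301 CPM in Des+/+ non-swim, 37544 to 61196 in Des+/+ swim, 7523 to 34959 in Des-/- non-swim and 18875 to 31401 in Des-/- swim, and 14 of 14 fell in Des-/- without swimming. Fibroblast markers summed to 6814 to 8104, 5916 to 7132, 14040 to 42702 and 9511 to 16539 CPM in the same order, and 13 of 14 rose in Des-/- without swimming. In the same comparison 10 of 12 macrophage markers rose, 0 of 10 endothelial markers were called, and of 6 tested atrial markers 1 rose and 1 fell. In Des-/- non-swim, replicate 3 had the lowest cardiomyocyte sum and the highest fibroblast sum, and replicate 2 the reverse. In bulk RNA, fewer cells of a type and less RNA per cell cannot be told apart.

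**Figure D1:**
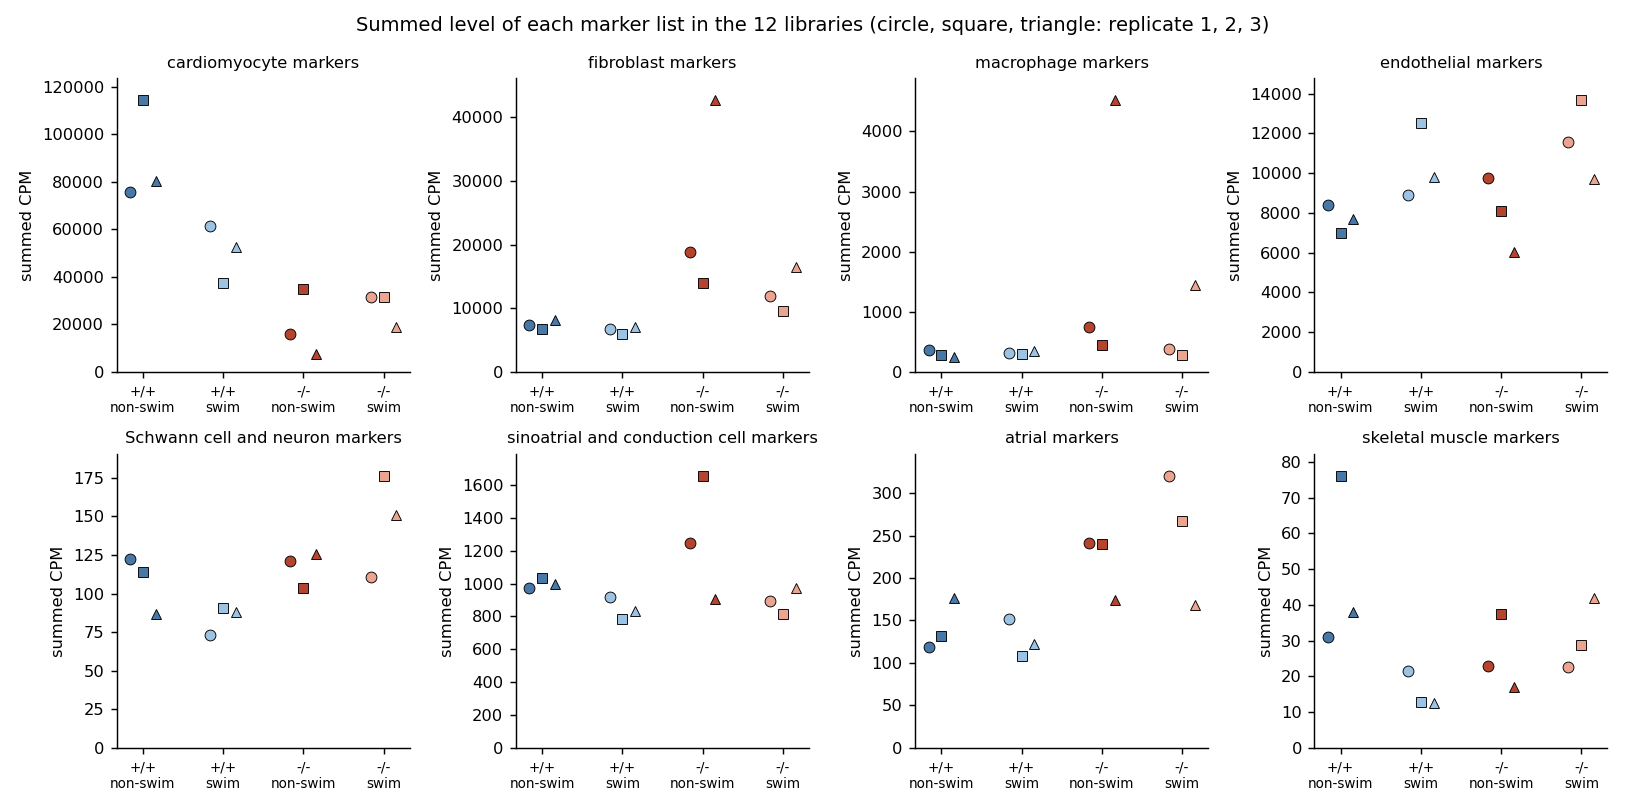
Summed CPM of 8 marker lists, 1 point per library, by genotype and swimming, with circles, squares and triangles for replicates 1, 2 and 3. The cardiomyocyte sums fall from 75502 or more in Des+/+ non-swim to 34959 or less in Des-/- non-swim, where the fibroblast sums are 14040 or more.

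All 5 members differed between Des-/- and Des+/+ cells without swimming, 4 lower and 1 higher in Des-/-. A call means an adjusted p under 0.05 in edgeR's quasi-likelihood test over all genes, and 32% of all tested genes were called here, 14% higher and 18% lower, so a call was common. The libraries of both groups did not overlap for 5 of 5 members, against 47.9% of all genes. The members were chosen with earlier results of these data known. Counts of members set beside shares of all genes, here and below, therefore do not test the members as a set. The median log2 change was -2.02 over the members and 0.039 over all tested genes.

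Scn4a encodes the pore subunit best known from skeletal muscle and lies at chromosome 11, 106318592 to 106353288, minus strand (GRCm38). It showed the steepest fall of the members. Its level was 31.5, 59.6 and 25.2 CPM in Des+/+ non-swim and 2.87, 8.15 and 1.66 CPM in Des-/- non-swim libraries. Every Des+/+ library stood above every Des-/- library, and replicate 2 was the highest in both groups. The mean fell from 38.7 ± 18.3 to 4.23 ± 3.45 CPM (SD, n = 3 each), a log2 change of -3.21 (SE 0.56), or 9.25-fold, with an edgeR adjusted p of 0.00195. Without Des-/- non-swim replicate 2, the library of that group with the most cardiomyocyte marker RNA, the log2 change was -4.10.

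Replicate counts behind Scn4a in Des-/- cells were small, 19 to 72 reads without and 11 to 44 reads after swimming. After swimming, the gene read 10.3, 11.8 and 16.4 CPM in Des+/+ and 6.26, 2.41 and 3.39 CPM in Des-/- libraries. The groups again did not overlap. The log2 change was -1.64 (SE 0.56), which missed the threshold with an edgeR adjusted p of 0.0783, and passed it with DESeq2 (adjusted p = 0.0242), in the fit of only the 6 libraries compared (0.0436), and without Des-/- non-swim replicate 2 (0.0348) or replicate 3 (0.0383). Skeletal muscle markers were scarce: 5 of 12 passed the filter, Myh4 held at most 1 read in any library, and their sum was 31.0 to 76.1, 12.4 to 21.6, 17.0 to 37.4 and 22.6 to 42.0 CPM over the groups in the order above. The sum was highest in Des+/+ non-swim replicate 2, as was Scn4a, and so was the cardiomyocyte marker sum (114301 CPM). Mybpc2 alone made up 59.4 of the 76.1 CPM in that library. Of the 5 tested markers, 3 were fitted lower and 2 higher in Des-/- without swimming. The part of skeletal muscle RNA in the result was not tested.

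Scn7a encodes an atypical relative of the sodium channels, known as a sensor of extracellular sodium and expressed by glia among other cells. It lies at chromosome 2, 66673425 to 66784914, minus strand, and was the member that rose. It read 58.1, 69.1 and 57.7 CPM in Des+/+ non-swim and 94.4, 83.9 and 107 CPM in Des-/- non-swim libraries, on 493 to 1226 reads. The groups did not overlap, and the 3 libraries of each lay close together. This was a log2 change of 0.63 (SE 0.16), or 1.54-fold, with an edgeR adjusted p of 0.0116.

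The same gap was present after swimming for Scn7a, where 1 of 5 members was called, against 10.6% of all genes in either direction and 5.01% that were higher. Its level was 39.1, 47.7 and 57.3 CPM in Des+/+ swim and 69.4, 73.9 and 81.4 CPM in Des-/- swim libraries. Again each Des-/- library stood above each Des+/+ library, and so did its share of reads in no gene, whose part in the result was not tested. Scn7a was 1.56-fold higher, a log2 change of 0.64 (SE 0.16), with an edgeR adjusted p of 0.0291. This call was lost when any of the 6 libraries compared was left out, at log2 changes of 0.51 to 0.78 and adjusted p of 0.0529 to 0.0878, and in the fit of only those 6 libraries (0.0507).

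Fibroblast markers rose by more than Scn7a in the same libraries, with a median log2 change of 1.52 without and 1.10 after swimming, where 4 of 14 were called. As a description, log2 CPM of Scn7a less the mean of the fibroblast markers was -1.83 in Des+/+ non-swim, -2.02 in Des+/+ swim, -2.84 in Des-/- non-swim and -2.31 in Des-/- swim cells. Of the 16 Schwann cell and neuron markers 14 were tested, 2 rose without and 2 after swimming, and the median log2 change was -0.18 and 0.75. Their sum was 86.6 to 123, 72.9 to 90.4, 104 to 125 and 111 to 176 CPM over the groups, with the Schwann cell gene Sox10 at 10 to 70 reads per library. The part of either cell type in the Scn7a result was not tested.

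Scn4b encodes a beta subunit, bound to the pore by a disulfide bridge, and lies at chromosome 9, 45138395 to 45154152, plus strand. It was the least abundant member per length in the Des+/+ non-swim group and fell in Des-/- cells without swimming. The level was 6.48, 13.4 and 13.4 CPM in Des+/+ non-swim and 3.30, 2.72 and 2.19 CPM in Des-/- non-swim libraries. The groups did not overlap, with Des+/+ replicate 1 nearest to the Des-/- libraries. Scn4b was 4.06-fold lower in Des-/- cells, a log2 change of -2.02 (SE 0.58), with an edgeR adjusted p of 0.0216. The call was lost without Des+/+ non-swim replicate 2 (adjusted p = 0.0690), without replicate 3 of that group (0.0667) or without Des-/- non-swim replicate 3 (0.0669).

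After swimming, Scn4b read 2.72, 7.60 and 1.57 CPM in Des+/+ and 1.85, 4.37 and 1.23 CPM in Des-/- libraries, and the groups overlapped. The log2 change was -0.73, with a 95% interval of -2.06 to 0.60 and an edgeR adjusted p of 0.442. Counts fell to 8 reads in a library, and the libraries of each group differed widely. Scn2b, the beta subunit gene next to Scn4b on the same strand, was not called in either comparison, at log2 changes of -0.31 and -0.29.

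**Figure D2:**
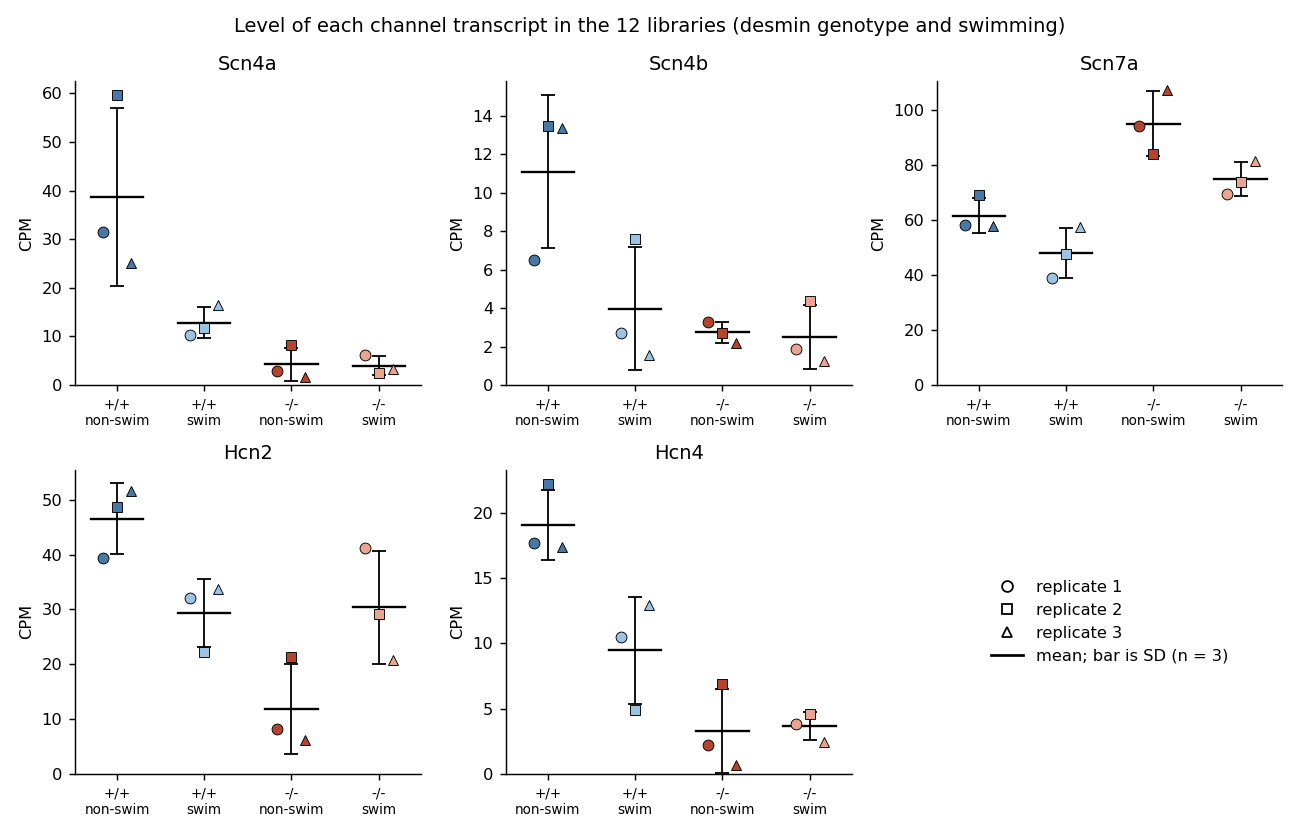
CPM of Scn4a, Scn4b, Scn7a, Hcn2 and Hcn4 in the 12 libraries, 1 point per library with the mean and SD (n = 3) per group. Scn4a, Scn4b and Hcn4 are highest in Des+/+ non-swim, Scn7a is highest in Des-/- non-swim, and Hcn2 is lowest in Des-/- non-swim.

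Hcn4, the pacemaker channel gene of the sinoatrial node, lies at chromosome 9, 58823412 to 58863175, plus strand. It fell in Des-/- cells without swimming, and its lower level in Des-/- cells after swimming was not called. Without swimming its level was 17.7, 22.2 and 17.4 CPM in Des+/+ and 2.23, 6.91 and 0.700 CPM in Des-/- libraries. The groups did not overlap, and the Des-/- libraries spread widely, from 8 reads in replicate 3 to 61 in replicate 2, in the order of their cardiomyocyte marker sums. Hcn4 was 5.89-fold lower in Des-/- cells, a log2 change of -2.56 (SE 0.62), with an edgeR adjusted p of 0.0104. Without Des-/- non-swim replicate 2 it was -3.72.

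After swimming Hcn4 read 10.5, 4.92 and 12.9 CPM in Des+/+ and 3.84, 4.59 and 2.46 CPM in Des-/- libraries. The groups did not overlap, though Des+/+ replicate 2 and Des-/- replicate 2 lay side by side. The log2 change was -1.38 (SE 0.63), and the edgeR adjusted p of 0.161 missed the threshold. In this comparison 3 of 5 members, Scn4a, Scn7a and Hcn4, did not overlap, against 35.9% of all genes. Of 16 sinoatrial and conduction cell markers 14 were tested, and without swimming 3 rose (Tbx18, Smoc2 and Bmp4) and 2 fell (Cacna1g and Cntn2). The sum was 974 to 1036, 786 to 919, 905 to 1656 and 812 to 974 CPM over the groups. Igfbp5 (mean 482, 359, 661 and 440 CPM) and Smoc2 (174, 109, 316 and 147 CPM) made up much of it. Among the genes that define sinoatrial cells, Isl1 held at most 2 reads in any library, Shox2 held 8 to 40 and Tbx3 held 352 to 1059. The part of such cells in the Hcn4 result was not tested.

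Hcn2, the usual HCN gene of ventricular muscle, lies at chromosome 10, 79716634 to 79736108, plus strand. It fell in Des-/- cells without swimming and was near the Des+/+ level after it. Without swimming it read 39.4, 48.7 and 51.7 CPM in Des+/+ and 8.08, 21.3 and 6.12 CPM in Des-/- libraries. The groups did not overlap, and replicate 2 was again the highest Des-/- library. Hcn2 was 3.96-fold lower in Des-/- cells, a log2 change of -1.99 (SE 0.41), with an edgeR adjusted p of 0.00458, and was -2.72 without that replicate.

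After swimming, Hcn2 read 32.1, 22.1 and 33.7 CPM in Des+/+ and 41.2, 29.1 and 20.8 CPM in Des-/- libraries, and the groups overlapped. A log2 change of 0.054 was fitted, with a 95% interval of -0.82 to 0.92 and an edgeR adjusted p of 0.939. Hcn2 was the member with the smallest fitted genotype difference after swimming. The interval leaves room for a change of nearly 1 log2 unit in either direction.

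Swimming changed 0 of 5 members by the edgeR call in either genotype, where 0.0912% of all genes were called in Des+/+ and 0.0228% in Des-/-. At an unadjusted p under 0.05, 2697 genes (20.5%) passed in Des+/+, among them Scn4a, Scn4b and Scn7a, and 2201 (16.7%) in Des-/-, among them Scn7a and Hcn2. In Des+/+ cells all 5 fitted values were below 0: -1.60 for Scn4a, -1.47 for Scn4b, -0.36 for Scn7a, -0.67 for Hcn2 and -1.02 for Hcn4. So were those of 7637 of 13158 tested genes and of 14 of 14 cardiomyocyte markers, the markers with a median of -0.79. The libraries of 4 of 5 members, all but Scn4b, did not overlap between Des+/+ swim and non-swim, against 31.3% of all genes. The edgeR adjusted p ranged from 0.133 for Scn4a to 0.350 for Hcn2, and DESeq2 called Scn4a (adjusted p = 0.0443). The cardiomyocyte marker sums and the shares of reads in no gene of these groups did not overlap either, and their part in these values was not tested.

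In Des-/- cells, swimming left Scn4a, Scn4b and Hcn4 at fitted log2 values of -0.025, -0.18 and 0.16, with 95% intervals of -1.28 to 1.23, -1.52 to 1.17 and -1.25 to 1.56. Hcn2 had the largest value, 1.37 (SE 0.41), or 2.59-fold higher after swimming. Its edgeR adjusted p of 0.199 missed the threshold and DESeq2 gave 0.0436. Des-/- swim replicate 3, at 20.8 CPM, lay just under Des-/- non-swim replicate 2, at 21.3 CPM, and the other libraries were apart. Only Scn7a of the 5 members did not overlap between these groups, at a log2 value of -0.35 (adjusted p = 0.297), against 19.4% of all genes. Of the 14 cardiomyocyte markers 13 had fitted values above 0 in this comparison, with a median of 0.57 (-0.32 to 1.17) and 0 called by edgeR.

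The interaction tests whether the swimming difference in Des-/- cells departs from that in Des+/+ cells, and the share of reads in no gene was higher after swimming in both. It was called for 0 of 5 members, and 0% of all genes were called by edgeR, with 2148 (16.3%) at an unadjusted p under 0.05, Hcn2 among them, and 318 called by DESeq2. Hcn2 had the largest member value, 2.04 on the log2 scale (SE 0.57), with an edgeR adjusted p of 0.199 and a DESeq2 adjusted p of 0.0316. Left-out libraries gave 1.73 to 2.77 for it. Scn4a had 1.57, Scn4b 1.29, Hcn4 1.17 and Scn7a 0.014, with adjusted p of 0.328, 0.441, 0.496 and 0.979. The loss of the genotype difference of Hcn2 after swimming was therefore not called by edgeR and was called by DESeq2. The cardiomyocyte markers moved the same way: 14 of 14 had an interaction above 0, with a median of 1.33 (0.76 to 1.78) and 0 called by edgeR. Their median genotype change after swimming was -0.64, with 1 of 14 called. The part of this shared movement in the Hcn2 value was not tested.

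**Figure D3:**
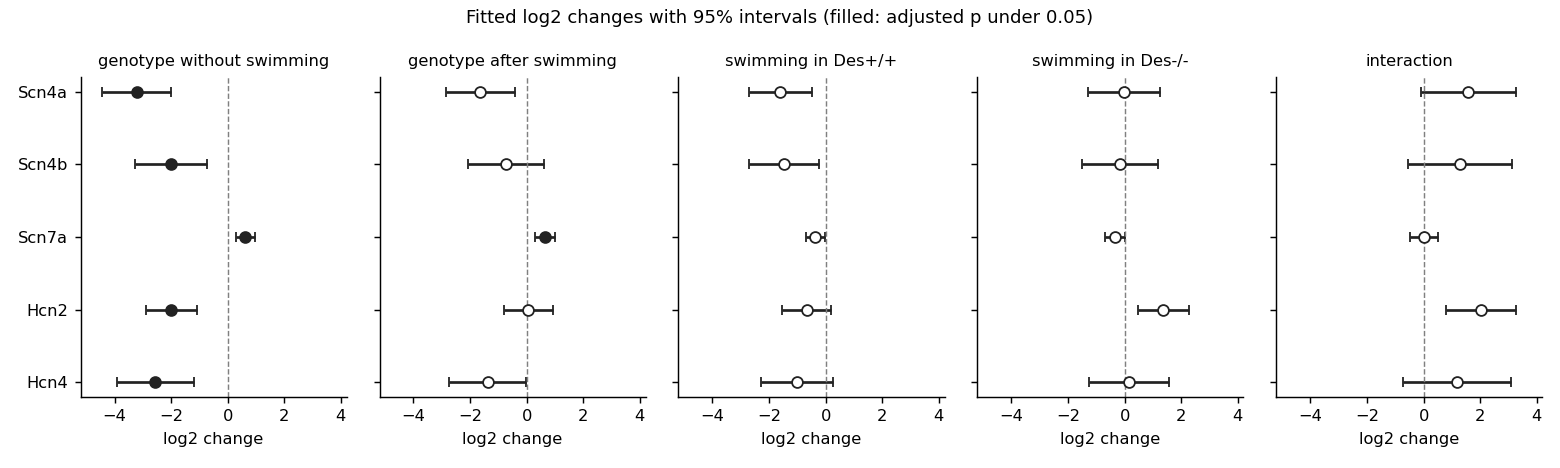
Fitted log2 changes of the 5 members with 95% intervals in each comparison and in the interaction. Filled points have an edgeR adjusted p under 0.05: all 5 in the genotype comparison without swimming, and Scn7a after swimming.

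Set in order, the group means of Scn4a ran from 38.7 CPM in Des+/+ non-swim through 12.8 in Des+/+ swim to 4.23 and 4.02 in Des-/- non-swim and swim, and the libraries of the last groups overlapped. Hcn4 followed the same order of genotypes with 19.1, 9.46, 3.63 and 3.28 CPM, Des-/- swim ahead of Des-/- non-swim, and again overlapped in the last pair. Scn4b ran 11.1, 3.96, 2.73 and 2.48 CPM and overlapped at every step. Hcn2 ran 46.6 in Des+/+ non-swim, 30.4 in Des-/- swim, 29.3 in Des+/+ swim and 11.8 in Des-/- non-swim, with an overlap at the first steps and none at the last. Scn7a ran 95.2 in Des-/- non-swim, 74.9 in Des-/- swim, 61.6 in Des+/+ non-swim and 48.1 in Des+/+ swim, and no neighbours overlapped.

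Divided by exon length, the order of Scn7a and Hcn2 changed with genotype without swimming. In Des+/+ non-swim cells the mean was 14.6 CPM per kb for Hcn2, 8.40 for Scn7a, 5.50 for Scn4a, 3.12 for Hcn4 and 2.23 for Scn4b. In Des-/- non-swim cells it was 13.0 for Scn7a, 3.70 for Hcn2, 0.601 for Scn4a, 0.549 for Scn4b and 0.536 for Hcn4. Scn7a thus passed Hcn2 as the most abundant member per length, and in Des-/- swim cells they were nearly level, at 10.2 and 9.51 CPM per kb. The SDs of Scn4a, Scn4b and Hcn4 in Des-/- non-swim were 0.49, 0.11 and 0.53 CPM per kb, so their order is not resolved.

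The other channel genes named here had a mean of under 14 CPM in every group and were not called in either genotype comparison. Scn3a, a pore gene better known from the nervous system, had log2 values of -0.22 without and 0.18 after swimming. The pore genes Scn2a, Scn8a and Scn10a had 0.91 and 0.48, 0.15 and 1.13, and -1.05 and 0.47. Nalcn, the sodium leak channel gene, had 1.39 and 0.94, and without swimming its libraries did not overlap, at a mean of 1.69 CPM in Des+/+ and 4.48 CPM in Des-/- (edgeR adjusted p = 0.0740).

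The beta subunit gene Scn3b had log2 values of 0.43 without and 0.46 after swimming, and Scn2b those given above. Hcn3, at 0 to 9 reads per library, did not pass the filter. Scn1a, Scn9a, the neighbour of Scn7a, and Scn11a did not pass it either, and Scn9a held at most 2 reads.

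**Figure D4:**
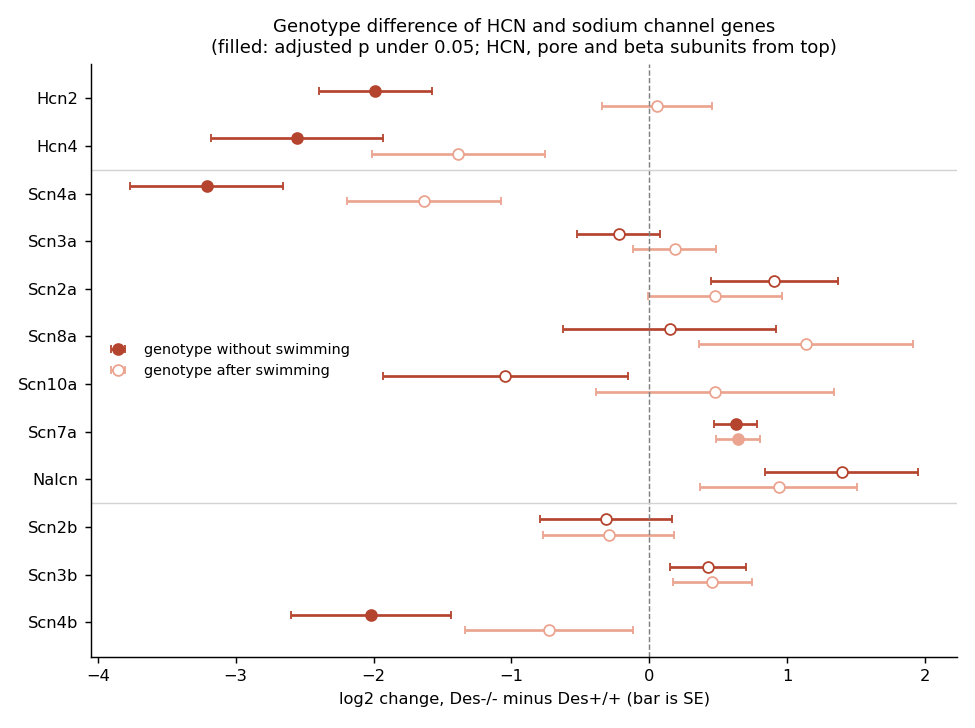
Log2 change, Des-/- minus Des+/+, of the 5 members and 7 other channel genes without (dark) and after (light) swimming, with SE bars. Filled points have an edgeR adjusted p under 0.05: Hcn2, Hcn4, Scn4a and Scn4b below 0 and Scn7a above 0 without swimming, and Scn7a after it.

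Genes whose products bind or anchor sodium channels mostly fell where Scn4a fell. Of 16 such partners 15 were tested, 11 fell and 0 rose without swimming, with a median log2 change of -1.25, where 18% of all genes fell. In the same comparison 14 of 14 cardiomyocyte markers fell, with a median log2 change of -2.19. Partners were not set against these markers within libraries, and the part of the marker fall in the partner values was not tested. The largest falls were those of Fgf13, a modulator of channel inactivation, at -2.82 (SE 0.42), Pkp2, a desmosomal plaque protein, at -1.84 (SE 0.35), and Cav3, the muscle caveolin, at -1.73 (SE 0.28). After swimming 2 fell, Fgf13 at -1.82 (SE 0.42, edgeR adjusted p = 0.0247) and the kinase gene Camk2d at -0.81 (SE 0.18, adjusted p = 0.0217), where 5.57% of all genes fell. Of 6 pacemaker channel partners 5 were tested, with Cav3, a gene of both lists, down and the actin crosslinker gene Flna up by 0.74 (SE 0.23), and 0 were called after swimming. Kcne2, a subunit gene proposed for HCN channels, held at most 1 read in any library.

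Cardiomyocyte markers as a list fell by a median of 2.19 on the log2 scale without swimming, within the range of the members that fell. Each member was therefore also set against the cardiomyocyte transcripts of its own library, as log2 CPM less the mean of the 14 markers. These values were compared between genotypes by an exact permutation test within swimming state (two-sided, 400 arrangements, smallest possible p 0.005), adjusted over 14 tests. Of 7 genotype quantities 2 passed, Scn7a and the ratio of Hcn4 to Hcn2.

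Scn7a gained on the cardiomyocyte markers by 2.24 log2 units in Des-/- cells, 2.99 without and 1.49 after swimming (exact permutation p = 0.005, adjusted p = 0.035). Its 6 Des-/- libraries all lay above its 6 Des+/+ libraries. The markers themselves fell, by a median log2 change of -2.19 without and -0.64 after swimming, while Scn7a changed by 0.63 and 0.64. Without swimming, most of the gain thus came from the fall of the markers. An unchanged gene would also gain on falling markers, so this test cannot decide whether Scn7a itself changed. The relative level was -6.10 ± 0.16 and -5.70 ± 0.52 in Des+/+ non-swim and swim, and -3.11 ± 1.20 and -4.21 ± 0.48 in Des-/- non-swim and swim (SD, n = 3). The adjusted exact permutation p rose to 0.07 without Des+/+ non-swim replicate 1 or Des-/- non-swim replicate 3, and to 0.0933 without Des+/+ non-swim replicate 2.

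Hcn4 lost ground to Hcn2 within libraries of Des-/- cells, by 1.02 log2 units (exact permutation p = 0.005, adjusted p = 0.035). The log2 ratio was -1.28 ± 0.24 in Des+/+ non-swim, -1.69 ± 0.39 in Des+/+ swim, -2.03 ± 0.63 in Des-/- non-swim and -2.97 ± 0.37 in Des-/- swim (SD, n = 3). Since both genes are read in the same library, library size drops out of this ratio apart from the prior count. The genotype difference was -0.76 without and -1.28 after swimming. Without Des+/+ non-swim replicate 1 or 2 or Des-/- non-swim replicate 3 the adjusted exact permutation p was 0.07, 0.0933 and 0.07, at differences of -0.99, -0.98 and -0.84.

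The other relative levels did not pass. Against the cardiomyocyte markers, Scn4a differed by -0.90 (exact permutation p = 0.015), Hcn2 by 0.53 (p = 0.02) and Hcn4 by -0.48 (p = 0.025), each with an adjusted p of 0.05, not under the threshold. Scn4b differed by 0.41 with an adjusted exact permutation p of 0.484. The ratio of Scn4a to Scn4b differed by -1.30 with an adjusted p of 0.101. For swimming, 0 of 7 passed: the largest values were -0.95 for Scn4b (adjusted exact permutation p = 0.126), -0.69 for Scn4a and -0.67 for Hcn4 against Hcn2 (0.05 each). In Des-/- swim cells the relative level of Hcn2 was -5.56 ± 0.28, against -6.29 ± 0.33 in Des-/- non-swim and -6.51 ± 0.24 in Des+/+ non-swim (SD, n = 3).

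**Figure D5:**
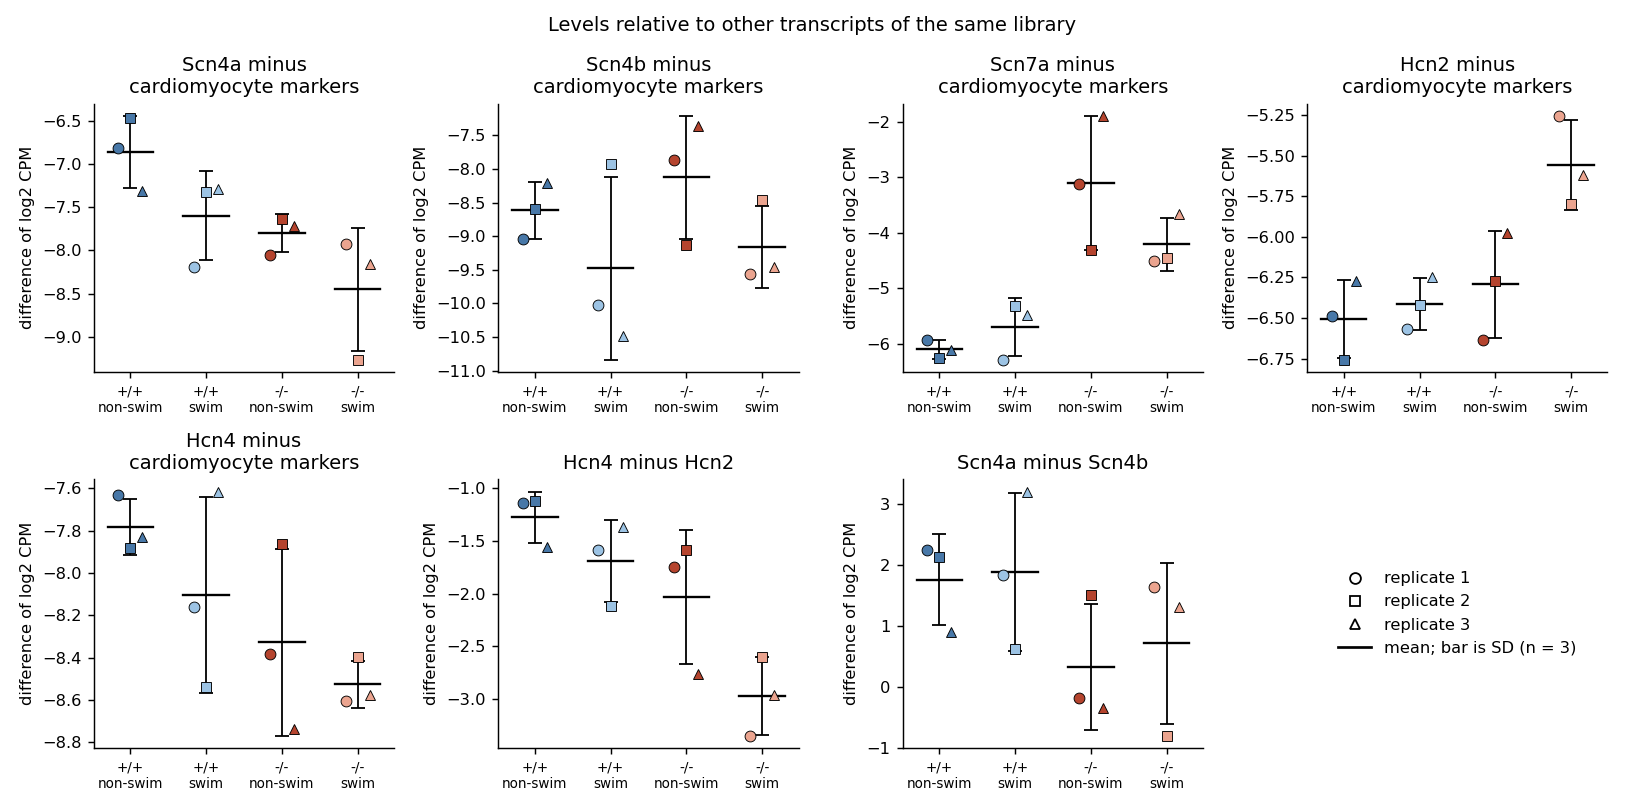
Log2 CPM of each member less the mean of 14 cardiomyocyte markers of the same library, and the log2 ratios of Hcn4 to Hcn2 and of Scn4a to Scn4b, 1 point per library with mean and SD (n = 3). Scn7a relative to the markers is higher in every Des-/- library, and the mean ratio of Hcn4 to Hcn2 falls from -1.28 in Des+/+ non-swim to -2.97 in Des-/- swim.

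The genes most like each member over the 12 libraries were named by Pearson's r of log2 CPM, as a description over libraries that share groups and cell mix. Hcn4 was most like Lingo3 (r = 0.993), Prob1 (0.988) and Kcnip2 (0.988), the last a potassium channel subunit gene of ventricular muscle. Scn4a was most like Opa1 (0.986), a mitochondrial fusion gene, Pnpla8 (0.982) and Oxct1 (0.981). Hcn2 was most like Tmem25 (0.967), Dmac2 (0.964) and Ckmt2 (0.960), the mitochondrial creatine kinase of muscle. Scn7a was most like Bnc2 (0.967), Evc (0.948) and Prrx2 (0.930), and Scn4b most like Zfp68 (0.915), Mrps11 (0.909) and Det1 (0.878).

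With group means taken out, so that only the spread within groups counts, Lingo3 stayed first for Hcn4 (r = 0.986), ahead of Pde1c (0.982) and Hhatl (0.981). Opa1 stayed among the first 3 for Scn4a (0.947), with Klhl7 (0.976) and Nsun4 (0.922). For the other members the names changed: Ppp1r14c (0.968), Ndufs1 (0.958) and Asb11 (0.958) for Hcn2, Sap30bp (0.964) and Rmc1 (0.945) for Scn7a, and Rexo1 (0.940), Mon1a (0.928) and Ftsj1 (0.928) for Scn4b. These are the highest of 13158 genes over 12 libraries.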

How the data were processed

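The authors deposited a table of raw read counts by gene for each library, made from 100 bp single-end reads aligned to GRCm38 (mm10) with HISAT2 2.2.1, sorted with SAMtools 1.13 and counted with HTSeq-count in reverse-strand mode. No normalisation was applied to these counts. The library kit is unstranded in the labels and directional in the methods, and no annotated gene overlaps a member. Of all reads in the tables, 52.4% to 78.8% per library lay in no gene or could not be assigned to 1, and these summary lines were left out.

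Groups were taken from the labels. Counts of all 12 libraries were fitted in R 4.3.3 with edgeR 4.0.16 (4 group means, TMM scaling, filterByExpr, quasi-likelihood tests, Benjamini-Hochberg adjustment over 13158 genes), with DESeq2 1.42.0 as an alternative (the study used 1.40.2). Replicates are separate pools. A floor of 3 counts was at most 0.656 CPM, and exact permutation cannot go below 0.1 for 3 libraries against 3. Within-library values used log2 CPM with a prior count of 2. Positions and exon lengths come from GENCODE release M21, promoters from RefSeq. For shares and medians over all promoters, each symbol gave a single promoter and a chromosome was left out. The edgeR and DESeq2 fits were tested on simulated counts with known changes, scored in the genotype comparison without swimming only. That simulation gave every gene the same spread, and the permutation test was not part of it.

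Members and lists were chosen with earlier results of these data known. Named were the 5 members, every tested gene of 3 lists of other channels, of 2 partner lists the called genes with the 3 largest changes in each direction in each genotype comparison, and for each member the 3 genes of highest r. Some genes that this rule takes in are not reported here. Marker genes named outside this rule were chosen after their values were seen. Same-numbered libraries deviated together between the Des-/- groups (r = 0.365, 0.316 and 0.602). Replicates 1 and 2 did so across numbers as well (0.299 and 0.292). Replicate 3 of each group had an r of -0.470 to -0.414 with the other numbers. The check thus sets replicate 3 apart and does not show that replicates 1 and 2 are paired by number. In the other comparisons at least 1 same-numbered r was at or under 0.1.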

Additional observations from a re-analysis of the deposited data

How the results depend on the processing

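The 5 calls without swimming were kept, as a count, with DESeq2, other scalings and filters, the replicate block and the study's filter (unadjusted p of at most 0.05, absolute log2 change of at least 0.6 and mean count of at least 20), and became 4 to 5 with a library left out. After swimming the count of 1 became 2 with DESeq2, 3 with the study's filter and 0 to 2 with a library left out. In Des+/+, swimming gave 1 call with DESeq2 and 2 with the study's filter, and in Des-/- and in the interaction each gave 1. The 2 genotype and 0 swimming quantities relative to other transcripts became 0 to 4 and 0 to 2 with a library left out. The replicate block changed no call of a member, and turned Scn4a for swimming in Des-/- to 0.16. Without a filter on low counts the interaction of Scn7a was -0.042. With a library left out, log2 values crossed 0 for genotype after swimming in Scn4b (-1.37 to 0.16) and Hcn2 (-0.24 to 0.27), for swimming in Des-/- in Scn4a (-0.51 to 0.87), Scn4b (-0.81 to 0.15) and Hcn4 (-0.33 to 1.31), for the interaction in Scn7a (-0.11 to 0.16) and for swimming in the ratio of Scn4a to Scn4b (-0.072 to 0.64). Between genotypes without swimming, upper-quartile scaling shifted the median of all genes by 0.10, and the calls over all genes split 2492 higher to 2034 lower instead of 1840 to 2370, and after swimming 948 to 456 instead of 659 to 733. Over all genes, swimming in Des+/+ gave 12 calls, against 790 with DESeq2, 54 with RLE scaling, 58 without a filter, 19 with the replicate block, 282 from the 6 libraries compared and 1355 with the study's filter. Swimming in Des-/- gave 3, against 333, 7 without a filter, 0 from 6 libraries and 1132, the interaction 0, against 318 and 1721, and genotype after swimming 1392, against 2276 and 2311, with DESeq2 and the study's filter. The causes were not tested. Counts of Scn4a, Scn4b and Hcn4 in Des-/- cells were 8 to 72 reads per library, which adds counting error.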
